A study of Mus musculus with 6 samples.

Results

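Axon guidance genes were examined in the ectoderm of the mouse forelimb bud, with and without the zinc finger transcription factor Sp8. The genes were chosen by symbol: all ephrins, Eph receptors, semaphorins, plexins, neuropilins, Slits, Robos, netrins and Unc5 receptors whose rows in the expression table carried a family name. This gave 67 of the 49452 genes of the table. No measured value was used to pick single genes, but the families and the lists below were chosen with earlier results of these data known. A combined row for Ntn3 and Tbc1d24 carried both names and was not matched. RNA was sequenced from 6 libraries, 1 for each embryo at E10.5, with the ectoderm of both its forelimbs taken off after trypsin digestion. The groups were 3 wild-type embryos from crosses of C57BL/6 mice and 3 Sp8 null embryos from crosses of Sp8+/- heterozygotes carrying an allele labelled Sp8-Cre-ERT2. The labels give the background strain as C57BL6J for both groups. Because the groups came from different crosses, the effect of the cross and that of the genotype cannot be told apart.

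Guidance ligands and receptors were first described in growing axons, and the same proteins control cell sorting, adhesion and boundary formation in epithelia and limb buds. Ephrins are membrane-bound ligands of Eph receptor tyrosine kinases. Semaphorins act through plexins, often with neuropilins as co-receptors for the secreted class 3 members. Slits are secreted ligands of Robo receptors, and netrins bind DCC, neogenin and the Unc5 receptors, the last of which mediate repulsion and can also act as dependence receptors. Sp8 is needed for the apical ectodermal ridge, the thickened rim of ectoderm that signals to the limb mesenchyme.

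Levels are given as FPKM, fragments scaled to transcript length and to the size of the library, a scale that can be compared between genes. A gene was tested when 3 or more libraries reached 1 FPKM, and the test was made with limma on log2(FPKM + 1). A gene is called changed at a Benjamini-Hochberg adjusted p-value under 0.05 over all 12133 tested genes. Every log2 fold change below is of FPKM + 1, Sp8 null over wild type, on which changes of weakly expressed genes come out too small. Of the 67 guidance genes, 47 passed the filter and 20 did not. Efna3 and Epha2 passed through the wild-type libraries alone, and 40 members reached 1 FPKM in all 6 libraries.

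The labels and tissue were checked first. Sp8 ranged from 0.460 to 1.14 FPKM in the null libraries and from 8.35 to 13.5 FPKM in wild type. All 10 surface ectoderm markers passed the filter, with summed levels of 466 to 562 FPKM in Sp8 null and 541 to 578 FPKM in wild type. Apical ridge markers summed to 56.7 to 72.8 FPKM in Sp8 null and 287 to 302 FPKM in wild type. Markers of limb mesenchyme summed to 81.5, 186 and 75.0 FPKM in Sp8 null embryos 1, 2 and 3 and to 114, 74.9 and 91.7 FPKM in wild-type embryos 1, 2 and 3, so that null embryo 2 stood apart. Erythroid markers summed to 422 FPKM in wild-type embryo 1 and to 11.6 to 161 FPKM elsewhere. Of 11 endothelial markers only Egfl7 passed the filter. They summed to 4.60, 3.52 and 2.63 FPKM in Sp8 null embryos 1 to 3 and 2.23, 2.84 and 3.16 FPKM in wild-type embryos 1 to 3. Cdh5, Kdr, Tie1 and Cldn5 had no wild-type value above 0 other than 0.00928 FPKM of Kdr in wild-type embryo 2. Pecam1, Sox18, Tek, Esam and Sox17 had wild-type values above 0, of up to 0.184 FPKM. Null embryo 1 was the highest library for Emcn (0.492 FPKM), Cdh5 (0.359 FPKM), Pecam1 (0.358 FPKM) and Kdr (0.131 FPKM). Markers of axons and neurons summed to at most 1.25 FPKM in any library, those of macrophages to 5.47 FPKM and those of neural crest to 11.9 FPKM. The macrophage sums were 2.95, 5.47 and 4.18 FPKM in Sp8 null embryos 1 to 3 and 2.94, 1.69 and 1.87 FPKM in wild-type embryos 1 to 3. Fcer1g, Tyrobp and Cx3cr1, all under the filter, were higher in every null library, and the other macrophage markers overlapped between the groups. Outside the ridge list, limma called Tfap2a and Lmx1b higher and Epcam, Msx1 and Jun lower in Sp8 null, and of these only Msx1 kept its call in all 6 fits that left out a library. Jun was from a list of 7 early genes induced by dissociation. Of that list Ier2 (log2 fold change -0.38, limma adjusted p = 0.0723) was also lower in every null library, as were Egr1 and Atf3 under the filter. The groups of Junb, Fos and Fosb overlapped, and the part of handling was not tested. The ridge markers called lower were Sp8, Fgf4, Fgf8, Fgf9, Bmp4, Msx2, Dlx5, En1 and Cd44, and Dlx6 was not called. Relative to wild-type embryo 1, the depth of the other libraries lay between 0.842 and 1.03, and depth in reads is unknown.

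In wild-type ectoderm 20 guidance genes were at 10 FPKM or more, 26 lay between 1 and 10 FPKM and 21 were under 1 FPKM. The secreted ligand Sema3a (38.3 ± 2.0 FPKM, SD, n = 3) and the receptor Plxna1 (38.2 ± 0.743 FPKM) were the most abundant, with overlapping values. Next came Nrp2 (27.5 ± 3.30 FPKM), Efnb2 (26.6 ± 2.97 FPKM), Unc5b (23.8 ± 2.49 FPKM), Efna5 (22.6 ± 2.38 FPKM) and Plxnb2 (22.1 ± 1.87 FPKM), each overlapping its neighbour in this order. Wild-type ectoderm held a ligand and a receptor of the ephrin, semaphorin, Slit and netrin systems at over 5 FPKM. At the other end, 12 members were under 0.1 FPKM, and Plxnb3 and Robo3 were listed at 0 in every library.

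**Figure D1:**
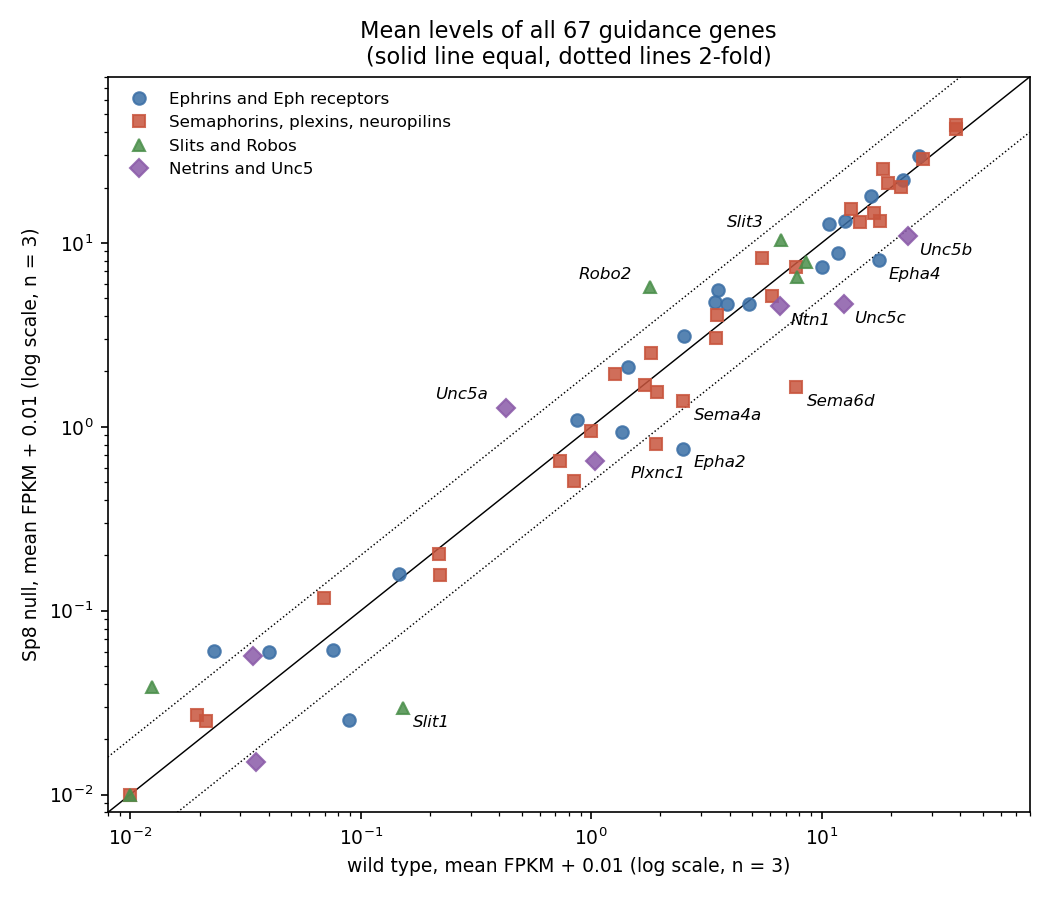
Mean FPKM + 0.01 of all 67 guidance genes in wild type (x axis) and Sp8 null (y axis), both on log scales, with 1 point per gene and 3 embryos per group. Most genes lie between the dotted lines of a 2-fold difference, with Sema6d, Unc5c, Unc5b, Epha4, Epha2 and Plxnc1 below them among genes over 1 FPKM in wild type, and Robo2 above them.

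In Sp8 null ectoderm 8 of the 47 tested members were lower by the test and none was higher. At an unadjusted limma p under 0.05 there were 19 members (40.4%), 5 higher and 14 lower, against 24.0% of all tested genes. The fallen genes were 2 semaphorins (Sema6d, Sema4a), 1 plexin (Plxnc1), 2 Eph receptors (Epha2, Epha4), netrin 1 (Ntn1) and 2 netrin receptors (Unc5b, Unc5c). Across all 12133 tested genes 6.83% were called, 5.15% as lower and 1.68% as higher in Sp8 null, and the members' share was 17.0%. The median log2 fold change was -0.05 over the tested members and -0.06 over all tested genes. The groups did not overlap for 22 tested members, 7 higher and 15 lower in Sp8 null, or 46.8% against 29.8% of all tested genes. Because members that passed the filter through 1 group had to differ, these shares are descriptions. Apical ridge markers fell with the called members, 9 of 10 of them being called lower, and their part in the result was not tested. The 10 include Sp8, the disrupted gene itself. Fgf4 and Fgf9 passed the filter through wild type alone, so that their groups had to differ. In bulk ectoderm, fewer cells of a type and less RNA per cell cannot be told apart.

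**Figure D2:**
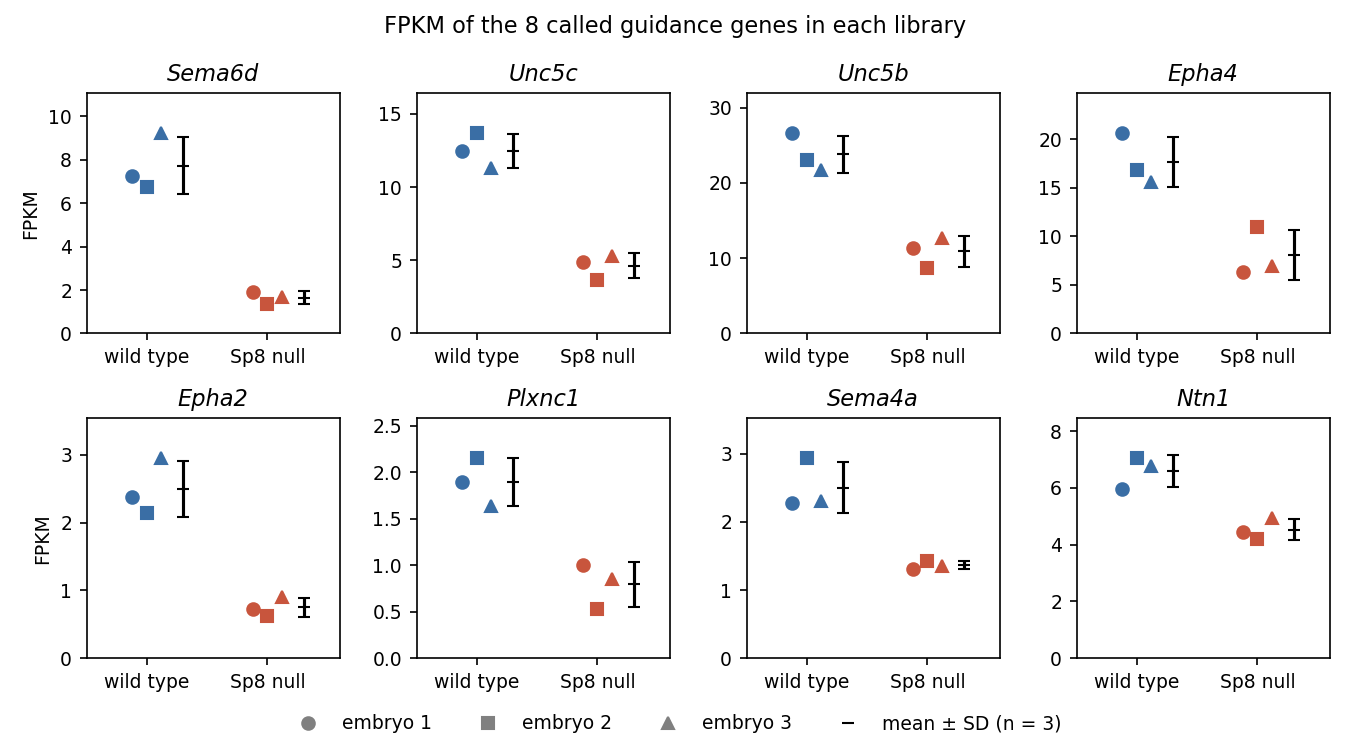
FPKM of the 8 called guidance genes in each library (y axes from 0), with wild type in blue, Sp8 null in red, symbols for embryos 1 to 3, and black bars for the mean ± SD of 3 embryos. In every panel the lowest wild-type library is above the highest Sp8 null library, as for Sema6d at 6.74 and 1.93 FPKM.

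The promoters of fallen members are shown because Sp family zinc fingers bind GC-rich boxes. Each sequence is the 250 bases before a RefSeq gene start on GRCm38.p6, read 5′ to 3′ on the strand of the gene. Capitals mark GGGCGG or its complement CCGCCC (the GC box) and CACCC or its complement GGGTG, and matches of these motifs may share bases. The windows are chr2:124089719-124089968 (plus strand) for Sema6d, chr10:60831582-60831831 (minus strand) for Unc5b, chr4:141300971-141301220 (plus strand) for Epha2 and chr10:94944846-94945095 (minus strand) for Plxnc1. No annotated GENCODE M21 exon overlaps them.
Sema6d: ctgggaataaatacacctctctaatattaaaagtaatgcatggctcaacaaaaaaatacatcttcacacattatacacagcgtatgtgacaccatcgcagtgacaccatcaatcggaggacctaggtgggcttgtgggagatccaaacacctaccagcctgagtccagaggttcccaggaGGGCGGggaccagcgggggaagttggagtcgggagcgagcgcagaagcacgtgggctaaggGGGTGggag
Unc5b: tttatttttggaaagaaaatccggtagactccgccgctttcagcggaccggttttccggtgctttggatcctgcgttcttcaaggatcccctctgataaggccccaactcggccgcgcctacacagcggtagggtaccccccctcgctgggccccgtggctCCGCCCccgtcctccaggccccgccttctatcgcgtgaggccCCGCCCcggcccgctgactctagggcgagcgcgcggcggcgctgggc
Epha2: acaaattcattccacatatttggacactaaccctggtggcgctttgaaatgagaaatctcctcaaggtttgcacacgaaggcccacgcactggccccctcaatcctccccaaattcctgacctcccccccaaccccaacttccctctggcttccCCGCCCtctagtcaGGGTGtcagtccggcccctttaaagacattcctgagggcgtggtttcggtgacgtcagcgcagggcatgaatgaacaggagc
Plxnc1: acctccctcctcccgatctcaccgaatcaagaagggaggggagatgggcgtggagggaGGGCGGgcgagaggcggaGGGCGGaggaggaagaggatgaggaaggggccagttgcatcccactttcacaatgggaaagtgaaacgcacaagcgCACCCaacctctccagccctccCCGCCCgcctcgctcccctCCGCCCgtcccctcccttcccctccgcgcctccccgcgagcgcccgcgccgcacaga

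The Plxnc1 window holds 4 GC boxes, that of Unc5b 2, and those of Epha2 and Sema6d 1 each. A second listed start of Sema6d holds neither motif. The window of Unc5c holds no GC box and 1 CACCC, and it is not printed because it overlaps an exon of the gene. That of Epha4, which overlaps an exon of another gene, holds 1 GC box, and 3 of the 4 windows of Sema4a hold at least 1. No window was listed for Ntn1. RefSeq listed promoters for 58 of the 67 members, with 74 windows, of which 52 (70.3%) held a GC box. The share was 72.7% (8 of 11) for windows of called members, 70.5% (31 of 44) for tested members that were not called and 59.4% for windows of all tested genes. The letters CACCC were in 81.8% of the windows of called members, 77.3% of those of tested members not called and 56.7% of those of all tested genes. A match is a run of letters and not a measured binding site.

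Among the ephrins, no ligand changed by the test. Of the 8 ephrins, all of which passed the filter, 5 had a higher and 3 a lower mean in Sp8 null. The A class, anchored in the membrane by a lipid, was led by Efna5, at 20.3, 19.0 and 26.3 FPKM in Sp8 null embryos 1 to 3 and 20.7, 25.2 and 21.8 FPKM in wild-type embryos 1 to 3 (log2 fold change -0.05, SE 0.13, 95% interval -0.36 to 0.26). Its groups overlapped. Efna3, which passed the filter through wild type alone, was at 0.878 to 0.975 FPKM in the null embryos and 1.17 to 1.55 FPKM in wild type and was not called (log2 fold change -0.29, limma adjusted p = 0.181). Summed over the A class the level was 48.5 ± 4.16 FPKM in the null embryos and 47.7 ± 2.22 FPKM in wild-type embryos (SD, n = 3).

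The B class ephrins span the membrane and can signal back into the cell that carries them. All 3 had a higher mean in Sp8 null. Efnb2, the most abundant, was at 29.4, 30.4 and 29.5 FPKM in the null embryos and 29.1, 27.2 and 23.3 FPKM in wild type (log2 fold change 0.16, limma adjusted p = 0.319). Efnb3 was at 5.49, 6.69 and 4.40 FPKM in the null embryos and 3.86, 3.54 and 3.20 FPKM in wild-type embryos. Its groups did not overlap, yet it missed the threshold (log2 fold change 0.51, SE 0.14, limma adjusted p = 0.0746). Without Sp8 null embryo 3 it passed (log2 fold change 0.64, limma adjusted p = 0.0397), and over all alternatives the limma adjusted p ran from 0.0397 to 0.206.

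Of the EphA receptors, which mostly bind A class ephrins, Epha4 and Epha2 fell. Epha4 (ENSMUSG00000026235; GRCm38 chromosome 1, 77367185 to 77515088, minus strand), a receptor that binds ephrins of both classes, was at 20.6, 16.8 and 15.6 FPKM in wild type and at 6.31, 11.0 and 6.90 FPKM in Sp8 null. The groups did not overlap, and null embryo 2 was the highest of its group. The means were 17.7 ± 2.61 and 8.07 ± 2.56 FPKM (SD over 3 embryos; log2 fold change -1.07, SE 0.19, limma adjusted p = 0.0206). This call was lost without Sp8 null embryo 1 or 3 and without wild-type embryo 1 or 2, the limma adjusted p-values over all alternatives ranging from 0.0028 to 0.0952. Without Sp8 null embryo 2 the log2 fold change was -1.29.

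Epha2 (ENSMUSG00000006445; chromosome 4, 141301240 to 141329384, plus strand), an epithelial receptor for A class ephrins, was at 2.38, 2.14 and 2.95 FPKM in wild type and at 0.726, 0.629 and 0.901 FPKM in Sp8 null. It passed the filter through the wild-type libraries alone, so that the groups could not overlap. The mean FPKM was 3.31-fold higher in wild type (log2 fold change of FPKM + 1 -0.99, SE 0.13, limma adjusted p = 0.00597). Epha1 was also lower in every null library, at 7.43, 6.35 and 8.37 FPKM against 9.53, 9.62 and 11.1 FPKM (log2 fold change -0.41, limma adjusted p = 0.0764). Its exons overlap those of Zyx on the other strand, a gene at up to 18.0 FPKM, and the use of strand in counting was not stated. Epha3 and Epha7 did not pass, with log2 fold changes of 0.18 and 0.29. The summed EphA level was 34.8 ± 3.23 FPKM in wild type and 22.3 ± 4.76 FPKM in Sp8 null (SD, n = 3), and most of that difference was Epha4.

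The EphB receptors, which bind B class ephrins, held at a summed 36.6 ± 3.38 FPKM in wild type and 36.8 ± 1.27 FPKM in Sp8 null (SD, n = 3), and none was called. Ephb2 was at 11.99, 13.0 and 10.3 FPKM in wild type and 9.56, 8.10 and 8.77 FPKM in Sp8 null. Its groups did not overlap (log2 fold change -0.38, SE 0.11, limma adjusted p = 0.0764). Ephb3 (log2 fold change 0.06), Ephb4 (0.22) and Ephb6, a member without kinase activity (0.37), had overlapping groups. Ephb1 was at most 0.103 FPKM in any library.

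Secreted class 3 semaphorins signal through a neuropilin and a class A plexin. No class 3 member was called. The groups did not overlap for 5 of the 6 tested, as for 29.8% of all tested genes. Sema3a was at 45.0, 40.3 and 46.8 FPKM in the null embryos and 39.5, 39.4 and 36.0 FPKM in wild-type embryos (log2 fold change 0.20, SE 0.08, limma adjusted p = 0.19). Sema3d was at 26.7, 21.4 and 27.5 FPKM against 20.4, 20.2 and 14.7 FPKM (log2 fold change 0.44, limma adjusted p = 0.125). Sema3e, a ligand that can bind plexin D1 without a neuropilin, was at 2.09, 1.73 and 1.98 FPKM against 1.32, 1.06 and 1.39 FPKM (log2 fold change 0.38, limma adjusted p = 0.0989).

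Those 3 were higher in every null library, and Sema3c and Sema3f were lower in every null library. Sema3c was at 16.2, 9.88 and 13.5 FPKM in the null embryos and 16.9, 20.0 and 17.0 FPKM in wild-type embryos (log2 fold change -0.44, limma adjusted p = 0.153). Sema3f had a log2 fold change of -0.16 (limma adjusted p = 0.216). Sema3b was near 1 FPKM in both groups, and Sema3g was at most 0.0267 FPKM.

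Sema6d fell furthest of all tested guidance genes. Sema6d (ENSMUSG00000027200; chromosome 2, 124089969 to 124667770, plus strand) is a transmembrane semaphorin that binds plexin A1 and plexin A4. It was at 7.25, 6.74 and 9.21 FPKM in wild type and at 1.93, 1.34 and 1.66 FPKM in Sp8 null. The groups were far apart, the mean FPKM being 4.71-fold higher in wild type (7.74 ± 1.30 against 1.64 ± 0.296 FPKM, SD, n = 3). The log2 fold change was -1.72 (SE 0.14, 95% interval -2.05 to -1.40, limma adjusted p = 0.000627), and it kept its call in all 15 alternatives that tested it. The other class 6 members went their own way. Sema6a was at 21.6, 18.6 and 23.2 FPKM in the null embryos and 18.8, 20.4 and 18.9 FPKM in wild-type embryos (log2 fold change 0.12, 95% interval -0.10 to 0.34), Sema6c differed by -0.03 (by 0.001 and 0.003 under both other scalings), and Sema6b was at most 0.0259 FPKM.

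Class 4 semaphorins are transmembrane ligands, mostly of class B plexins. Sema4a (ENSMUSG00000028064; chromosome 3, 88435959 to 88461182, minus strand) was at 2.28, 2.93 and 2.30 FPKM in wild type and at 1.31, 1.43 and 1.36 FPKM in Sp8 null. The groups did not overlap (log2 fold change -0.56, SE 0.11, limma adjusted p = 0.0318), but the call was lost when any single library was left out, with limma adjusted p-values of up to 0.124 over the alternatives. Sema4d, a ligand of plexin B1, was at 5.96, 6.39 and 5.87 FPKM in wild type and 5.17, 4.76 and 5.46 FPKM in Sp8 null (log2 fold change -0.21, limma adjusted p = 0.203). Sema4b, the most abundant of the class, differed by -0.05 (95% interval -0.25 to 0.16). Sema4c and Sema4g differed by -0.15 and 0.30 with overlapping groups.

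The plexins, receptors of the semaphorins, summed to 98.7 ± 2.60 FPKM in wild type and 98.4 ± 4.12 FPKM in Sp8 null (SD, n = 3). Plxnc1 (ENSMUSG00000074785; chromosome 10, 94790866 to 94944835, minus strand) was the 1 called among 7 tested. It was at 1.90, 2.15 and 1.63 FPKM in wild type and at 1.0, 0.524 and 0.851 FPKM in Sp8 null. These groups did not overlap (log2 fold change -0.70, SE 0.14, limma adjusted p = 0.0325). Its call was lost in 9 of 15 alternatives, among them the fits without Sp8 null embryo 2 or 3 or any 1 wild-type embryo, with limma adjusted p-values of up to 0.13. Its known ligand Sema7a was at most 0.177 FPKM in any library.

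Plexins that bind Sema6d or act with neuropilins were not called. Plxna1 was at 36.5, 43.3 and 44.6 FPKM in the null embryos and 37.8, 37.8 and 39.1 FPKM in wild-type embryos (log2 fold change 0.11, 95% interval -0.09 to 0.31). Plxna2, Plxna3 and Plxna4 differed by 0.16, 0.16 and -0.21, and their groups overlapped. Plxnb1 was lower in every null library, at 13.8, 13.9 and 15.7 against 16.6, 17.1 and 17.1 FPKM, without passing the test (log2 fold change -0.21, limma adjusted p = 0.144). Plxnb2 differed by -0.12. Plxnd1, an endothelial plexin also found elsewhere, did not reach the filter and was highest in wild-type embryo 1 at 1.45 FPKM.

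**Figure D3:**
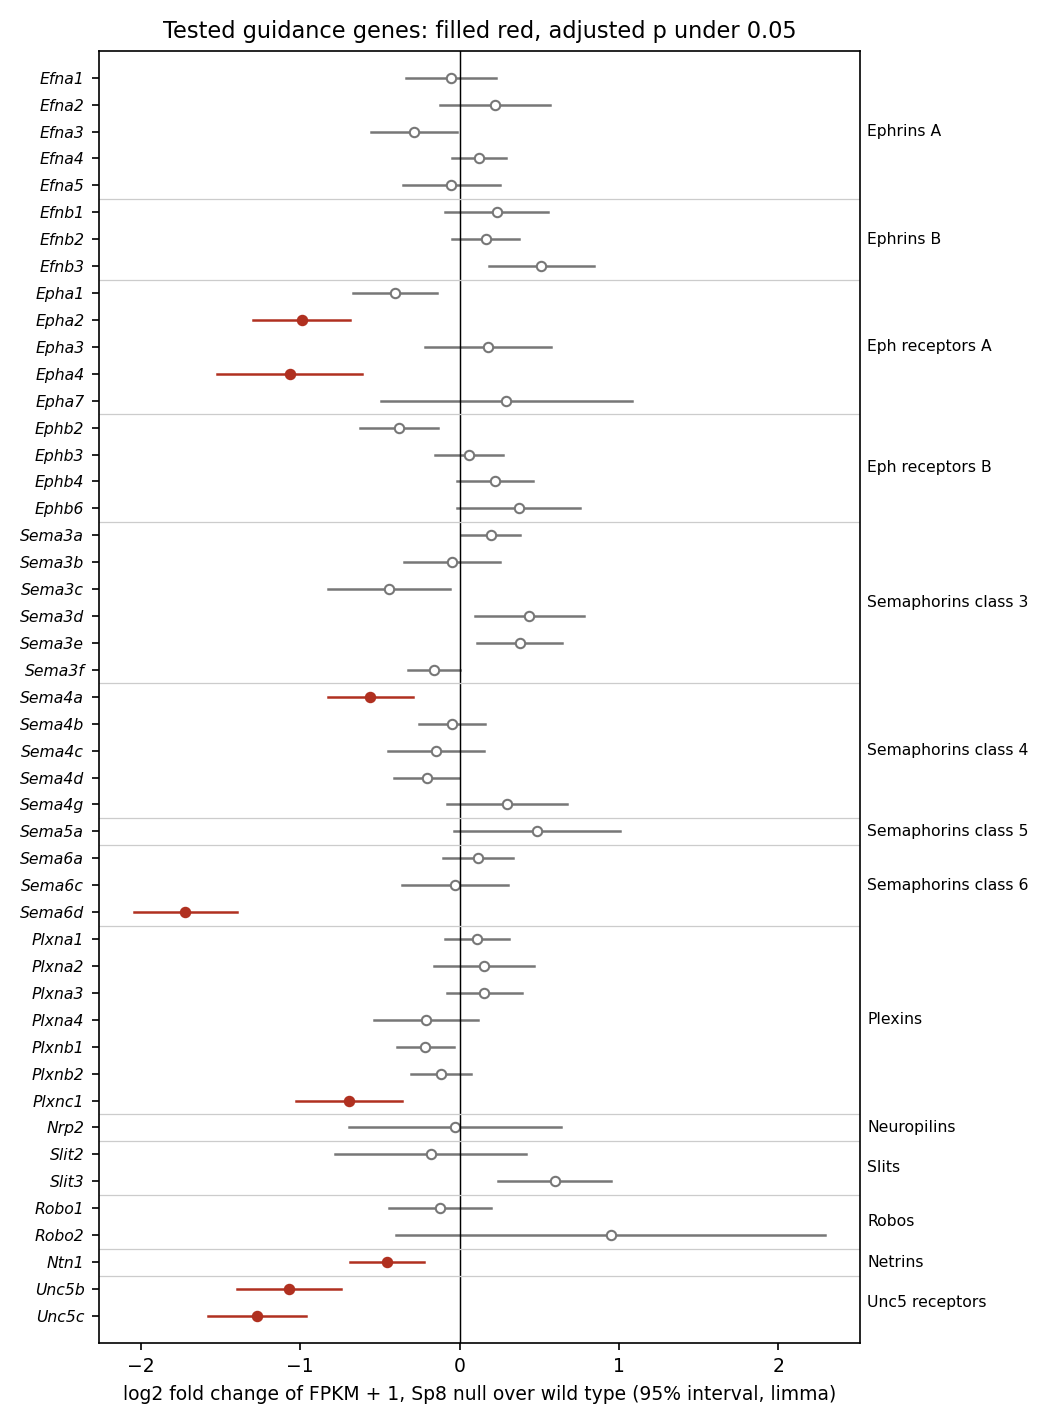
Log2 fold change of FPKM + 1 in Sp8 null over wild type (x axis) for the 47 tested guidance genes, ordered by family, with the 95% interval from limma over 6 libraries. Filled red points are the 8 called genes, all to the left of 0 from Ntn1 at -0.46 to Sema6d at -1.72, and the interval of Robo2 is the widest, from -0.40 to 2.29.

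Robo2, Epha7 and Sema5a had a highest library at least 1.5 times the next of all 6. Nrp2 did not reach that ratio and is set beside them. Slit2 did not reach it either, but its wild-type embryo 3 was far above the others of its group (11.7 against 6.34 and 5.47 FPKM). Robo2, a Slit receptor, was at 2.16, 13.0 and 2.09 FPKM in the null embryos and 2.85, 0.886 and 1.62 FPKM in wild-type embryos. Null embryo 2 was 4.57 times the next library, and the groups overlapped (log2 fold change 0.95, SE 0.58, limma adjusted p = 0.368). Epha7 was at 3.25, 8.10 and 2.86 FPKM against 4.26, 2.20 and 3.81 FPKM, with null embryo 2 at 1.90 times the next library. Sema5a, a transmembrane semaphorin, was at 6.67, 11.8 and 6.45 FPKM against 6.79, 4.99 and 4.69 FPKM, a ratio of 1.74. Nrp2, the co-receptor of Sema3c and Sema3f, was at 19.8, 45.3 and 21.2 FPKM against 31.2, 25.2 and 25.9 FPKM.

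Nrp2 was taken into this set, and Slit2, highest in wild-type embryo 3, was left out. Whether the whole set shares a highest library depends in part on that choice. Robo2, Epha7, Sema5a and Nrp2 were all highest in Sp8 null embryo 2, the library with the highest summed limb mesenchyme markers. Of the 12 mesenchyme markers 10 were highest in it too, and Msx1 and Pdgfra were highest in wild-type embryo 1, at 8.91 and 23.8 FPKM against 2.53 and 19.5 FPKM in null embryo 2. In that null library Prrx1 was at 2.93, Meox2 at 3.54, Tbx5 at 2.87 and Twist1 at 2.55 times their own mean over the 6 libraries, and Robo2 at 3.45 times. The part of mesenchyme in these 4 genes was not tested. Without that library the log2 fold changes were 0.23 for Robo2, -0.10 for Epha7, 0.23 for Sema5a and -0.40 for Nrp2, and none was called. The groups of Nrp2 then did not overlap, all wild-type libraries being higher (limma adjusted p = 0.116). Null embryo 2 was the highest library for 17 of the 47 tested members (36.2%) and for 16.3% of all tested genes. It was also the lowest library for 15 of the members (31.9%) and for 24.1% of all tested genes. Over all tested genes 3.0% had a highest library at least 1.5 times the next, and for 1.27% that library was null embryo 2. Robo2, Epha7 and Sema5a met that ratio and Nrp2 did not.

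**Figure D4:**
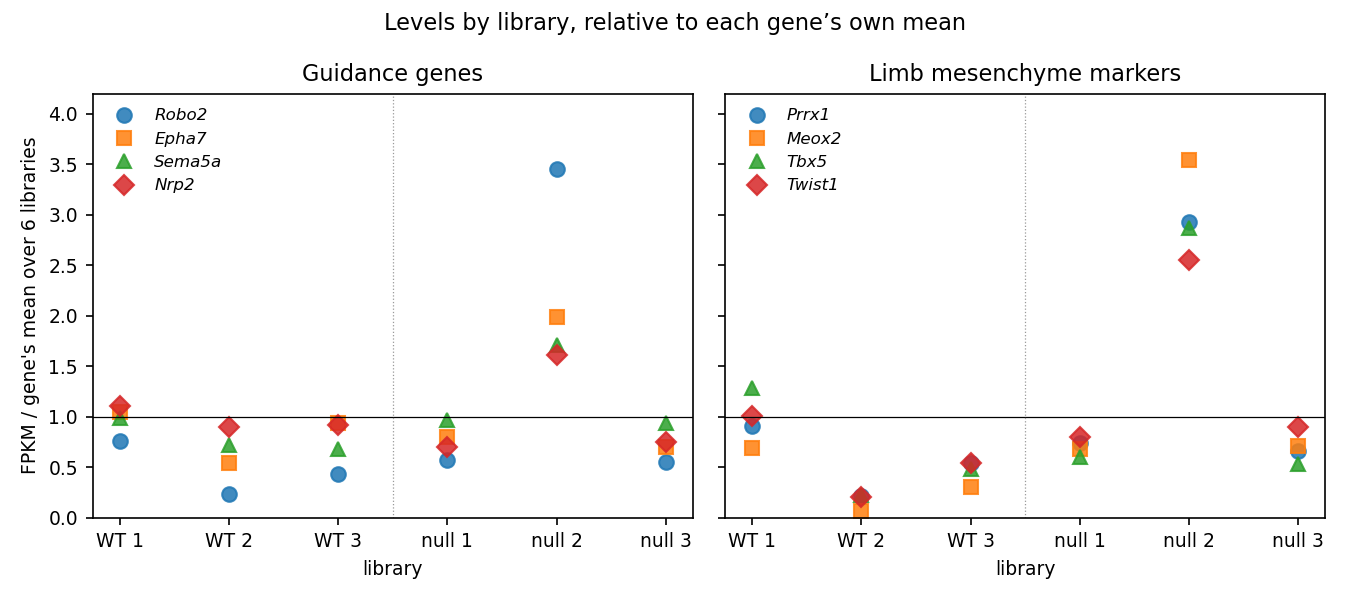
FPKM of 4 guidance genes (left) and 4 limb mesenchyme markers (right) in each of the 6 libraries, divided by the mean of each gene over the libraries, with wild type left and Sp8 null right of the dotted line. The 4 markers were picked from the 10 of 12 that are highest in Sp8 null embryo 2, where the guidance genes are highest too, with values from 1.61 times the mean for Nrp2 to 3.54 times for Meox2.

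Of the Slits, secreted ligands of Robo receptors, Slit3 lay just outside the threshold and Slit2 did not differ beyond its spread. Slit3 was at 10.2, 11.4 and 9.59 FPKM in the null embryos and 8.55, 5.61 and 5.74 FPKM in wild-type embryos. Every null library was above every wild-type library, with a mean FPKM 1.57-fold higher in Sp8 null (log2 fold change 0.60, SE 0.15, limma adjusted p = 0.0604). It passed under median-of-ratios scaling (0.64, limma adjusted p = 0.0407), under upper-quartile scaling (0.64, limma adjusted p = 0.0373) and without wild-type embryo 1 (0.77, limma adjusted p = 0.0147). Over all alternatives its limma adjusted p ran from 0.0147 to 0.203.

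Slit2 was at 5.63, 8.21 and 5.76 FPKM in the null embryos and 6.34, 5.47 and 11.7 FPKM in wild-type embryos. Its groups overlapped (log2 fold change -0.18, 95% interval -0.78 to 0.41), and without wild-type embryo 3, its highest library, the difference was 0.11. Slit1 was low throughout, at 0, 0.0531 and 0.00526 FPKM in the null embryos and 0.127, 0.164 and 0.136 FPKM in wild-type embryos. With no filter on low values it was not called (limma adjusted p = 0.0763). Robo1, the main Robo of this tissue at 8.81, 8.09 and 8.65 FPKM in wild type, was at 6.59, 9.83 and 7.10 FPKM in Sp8 null (log2 fold change -0.12, 95% interval -0.45 to 0.20). Robo4, an endothelial member, was at most 0.078 FPKM.

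Of the netrins and Unc5 receptors all 3 tested members were called lower, the ligand Ntn1 and the receptors Unc5b and Unc5c. Over all tested genes 5.15% were called lower. The netrin receptor neogenin, counted among the partners below, did not differ beyond its spread (Neo1, log2 fold change -0.01). Ntn1 (ENSMUSG00000020902; chromosome 11, 68209364 to 68400823, minus strand), the secreted ligand, was at 5.96, 7.05 and 6.78 FPKM in wild type and at 4.44, 4.21 and 4.95 FPKM in Sp8 null. The groups did not overlap (log2 fold change -0.46, SE 0.10, limma adjusted p = 0.0377). This was the call nearest the threshold and held in 3 of 16 alternatives. It was lost under both other scalings and without any single library, with limma adjusted p-values of up to 0.158. Ntn4, a laminin-related netrin of basement membranes, was under the filter at 1.02, 0.972 and 1.11 FPKM in wild type and 0.556, 0.855 and 0.509 FPKM in Sp8 null. With no filter its limma adjusted p was 0.313, and Ntn5 was at most 0.0571 FPKM.

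Of the Unc5 receptors, Unc5b and Unc5c both fell. Unc5c (ENSMUSG00000059921; chromosome 3, 141465216 to 141834924, plus strand) was at 12.4, 13.7 and 11.3 FPKM in wild type and at 4.88, 3.66 and 5.32 FPKM in Sp8 null. The mean FPKM was 2.70-fold higher in wild type (log2 fold change -1.27, SE 0.13, 95% interval -1.58 to -0.96, limma adjusted p = 0.00205). Unc5b (ENSMUSG00000020099; chromosome 10, 60762593 to 60831581, minus strand) was at 26.6, 23.1 and 21.7 FPKM in wild type and at 11.3, 8.68 and 12.7 FPKM in Sp8 null.

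Its mean FPKM was 2.18-fold higher in wild type (log2 fold change -1.07, SE 0.14, 95% interval -1.40 to -0.74, limma adjusted p = 0.00592). Both receptors kept their direction and call in all 16 alternatives. The 4 Unc5 genes summed to 36.7 ± 3.14 FPKM in wild-type embryos and 16.8 ± 2.49 FPKM in the null embryos (SD, n = 3). Unc5a ran the other way below the filter, at 1.43, 1.63 and 0.724 FPKM in the null embryos and 0.608, 0.327 and 0.314 FPKM in wild-type embryos. Its groups did not overlap, and with no filter it was not called (log2 fold change 0.66, limma adjusted p = 0.204). Unc5d was at most 0.0590 FPKM.

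The remaining netrin receptors were read from a list of 58 pathway partners. Neo1, which encodes neogenin, was at 50.01, 53.9 and 55.3 FPKM in the null embryos and 55.6, 52.7 and 52.0 FPKM in wild-type embryos (log2 fold change -0.01, limma adjusted p = 0.943). Dcc reached no more than 0.114 FPKM and Dscam no more than 0.08 FPKM. Flrt3, which encodes a membrane protein that binds Unc5 receptors and latrophilins, was at 68.5, 63.7 and 71.2 FPKM against 65.0, 69.6 and 68.0 FPKM (log2 fold change 0.005). Its relative Flrt1 rose, with 4.02, 3.74 and 3.93 FPKM in the null embryos against 1.23, 0.999 and 1.36 FPKM (log2 fold change 1.16, limma adjusted p = 0.00113).

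Of the 58 partners 45 were tested and 8 were called, 5 higher and 3 lower, or 17.8% against 6.83% of all tested genes. Besides Flrt1 the higher ones were Rras (log2 fold change 0.82, limma adjusted p = 0.0448), a GTPase target of plexins, Vav3 (0.60, limma adjusted p = 0.044), an exchange factor downstream of Eph receptors, Dpysl3 (0.54, limma adjusted p = 0.0269), a cytosolic mediator of semaphorin signals, and Farp1 (0.44, limma adjusted p = 0.0298), which encodes a FERM domain exchange factor. The lower ones were Crmp1 (-0.60, limma adjusted p = 0.0347), a relative of Dpysl3, Srgap1 (-0.41, limma adjusted p = 0.0303), a GTPase-activating protein that binds Robo, and Tiam1 (-0.41, limma adjusted p = 0.0339), a Rac exchange factor. Flrt1 kept its call in all 15 alternatives that tested it. The other 7 lost theirs when single libraries were left out, Crmp1, Srgap1 and Vav3 in all 6 such fits and Dpysl3, Farp1, Rras and Tiam1 in 5 of 6, with limma adjusted p-values of up to 0.158.

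By group, 4 of 16 tested semaphorin and plexin mediators were called, 2 of 10 Eph mediators, 1 of 10 Slit and Robo mediators, 1 of 6 FLRT and latrophilin genes and 0 of 3 netrin, RGM and DCC genes by limma. Of all tested genes 6.83% were called.

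Of the 20 members under the filter, 16 were under 0.5 FPKM in every library and 4 (Nrp1, Ntn4, Plxnd1 and Unc5a) reached 1 FPKM in at least 1. Nrp1 was at 0.376, 0.847 and 0.262 FPKM in the null embryos and 1.15, 0.693 and 0.655 FPKM in wild-type embryos, far below Nrp2. Sema4f, the next most abundant, was at most 0.31 FPKM. With no filter on low values 18 of the 20 could be fitted, and limma called none of them. Slit1, Unc5a, Epha8 and Ntn4 had an unadjusted limma p under 0.05.

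The authors' deposited table also gave a comparison, with a test that was not described. All 8 called members had a p-value under 0.05 in the authors' deposited table, in the same direction. Its signed fold changes were -3.31 for Sema6d, -2.80 for Epha2, -2.61 for Unc5c, -2.10 for Plxnc1, -1.96 for Unc5b and -1.85 for Epha4. A further 19 tested members had a p-value under 0.05 in the authors' deposited table, 12 higher and 7 lower in Sp8 null, among them Slit3 (1.53), Efnb3 (1.55) and Sema3e (1.6). In all, 57.4% of the tested members were under 0.05 in the authors' deposited table, as were 31.3% of all tested genes.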

How the data were processed

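RNA from 6 libraries was measured. The authors deposited FPKM per gene and library. The submitters' processing notes name TopHat2, Cufflinks, SAMtools, FastQC and DESeq2 with no role or version, and build GRCm38. Gene models were Ensembl build 87, per the file headers. Strand use and scaling between libraries were not stated. The authors' deposited table also holds a signed fold-change score and a p-value, used only to describe that comparison.

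Columns were matched to samples by the sample names in the labels. Values entered limma 3.58.1 in R 4.3.3 as log2(FPKM + 1), for genes that reached 1 FPKM in 3 or more libraries (genotype as the only term, mean-variance trend, two-sided). The procedure was tested on simulated data. Replicates are single embryos, and whether they share litters is not stated. Depth is known only as a ratio between libraries, taken from low FPKM values, so no counting interval is given. Coordinates are from GENCODE M21 (GRCm38), which held 49109 of 49452 identifiers.

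Every called member, and in each family the most abundant member and that with the smallest p-value, was to be named, as were the 5 most abundant members under the filter and the called partners and markers; the others are named for completeness. Promoter sequences are from RefSeq on GRCm38.p6. Alternatives were the pseudocount, filters, scaling, a replicate block, a covariate, no trend, a stricter threshold and single libraries left out. The members and lists were chosen with earlier results of these data known.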

Additional observations from a re-analysis of the deposited data

How the results depend on the processing

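The 8 called members and the 829 calls over all genes moved with the settings, and the cause was not tested unless stated. With no filter on low values 4 members were called, all lower, and 342 genes in all. A filter at a mean of 5 FPKM, which leaves 27 members and removes Sema6d, Epha2, Plxnc1 and Sema4a from the test, gave 3 calls, all lower. With it 617 of 7412 genes were called in all, or 8.32% against 11.1% of the members. At an adjusted p under 0.01 there were 4 members, all lower, and 244 genes. Under median-of-ratios and upper-quartile scaling 8 members were called, 7 of them lower and 1, Slit3, higher. Over all genes 277 of 857 and 266 of 777 calls were then higher in Sp8 null, against 204 of 829 in the main fit. The median log2 fold change of all tested genes moved from -0.056 to -0.019 and -0.015. With a covariate for the first digit of each sample's name 5 members (all lower) and 545 genes were called. Leaving out 1 library at a time gave 3 to 5 called members, 0 to 1 higher and 3 to 5 lower, and 213 to 665 genes. The fewest, 3 and 213, came without wild-type embryo 2. Without any 1 wild-type embryo Epha2 fell under the filter and was not tested, so its absence from those counts is not a lost call. Sema6d, Unc5b and Unc5c kept their calls in every alternative that tested them, as did Epha2 in the 12 that tested it. Those 12 all kept the 3 wild-type libraries through which Epha2 passes the filter, so its call was not tried without any of them.

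Same-numbered embryos did not deviate together (r = -0.164, -0.145 and -0.0699 across genes), and the labels do not pair them. With the replicate block 5 members were called, all lower, and 328 genes in all; Ntn1, Plxnc1 and Sema4a were lost.

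Some members that were not called changed sign in their log2 fold change. Leaving out 1 library at a time gave -0.158 to 0.013 for Efna1, -0.184 to 0.038 for Efna5, -0.096 to 0.524 for Epha7, -0.016 to 0.105 for Ephb3 and -0.399 to 0.179 for Nrp2. It gave -0.095 to 0.038 for Sema3b, -0.077 to 0.006 for Sema4b, -0.154 to 0.079 for Sema6c and -0.374 to 0.111 for Slit2. Under median-of-ratios scaling Nrp2 was at 0.013 and Sema6c at 0.001, and under upper-quartile scaling at 0.016 and 0.003. Of 1064 values followed for 69 genes, 900 kept direction and side of the threshold, 142 were no longer past it, 4 newly passed it and 18 changed sign. Depth is unknown in reads, which limits what can be said of the members under 1 FPKM.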
